A study of Sus scrofa with 13 samples.

Results

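Schwann cells are the glia of peripheral nerve, and the genes described here are 8 classical Schwann cell and myelin genes, chosen by name: PRX, PMP22, MBP, SOX10, S100B, CDH19, NGFR and NCAM1. Of these, 7 were matched among the 30477 rows of the expression table, and S100B was not analysed here. The libraries came from vein of pigs (Sus scrofa) with an arteriovenous fistula, a surgical join of an artery to a vein. The vehicle group of 5 animals (P13, P15 and P17 female, P14 and P16 male) received PLGA+Hydrogel, a degradable polymer carrier in a gel. The 1,25 NP group of 8 animals (P22, P24 and P31 female, P21, P23, P28, P32 and P42 male) received 1,25 NP PLGA+Hydrogel, in which the nanoparticles carry 1α,25-dihydroxyvitamin D3, the hormone form of vitamin D, so the polymer and gel were common to both groups. The sources used here do not give strain, age or time after surgery of these pigs. Nothing in the labels says more of the replicates than a number, so p-values measure the spread between these 13 libraries.

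Schwann cells wrap large axons in compact myelin, and bundle small axons without myelin, as in the fine nerves that run in the outer wall of blood vessels. The transcription factor SOX10 is needed for the lineage at every stage and switches on myelin genes together with EGR2. After nerve injury Schwann cells lower their myelin genes and raise NGFR and NCAM1, which are also typical of the non-myelinating cells. Several of these genes are not restricted to nerve: PMP22 is expressed by fibroblasts and epithelia, NCAM1 by natural killer cells and neurons, and NGFR by some perivascular cells.

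The table gives RPKM, reads scaled to the length of the gene model and to the depth of the library, and the libraries held 30261776 to 50271231 reads on genes. Differences were tested with limma on log2(RPKM + 0.5), on which scale the change of a low gene is understated, and a gene was called at an adjusted p under 0.05. Of 14579 genes that passed the filter of more than 0.5 RPKM in at least 5 libraries, 0 were called, which is 0%, and 585 had an unadjusted p under 0.05. With no filter the same limma test called 0 of 27174 genes, and voom on reads recovered from the RPKM also called 0, with 629 genes at an unadjusted p under 0.05. Each comparison of the 2 groups below is therefore given as values with an interval and not as a call.

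In the 1,25 NP group the fitted level of all 6 tested members was lower than in vehicle, and none of the 6 passed the test. Over all tested genes 56.2% were lower. The log2 difference was below -0.5 for 5 of the 6 members, against 14% of all tested genes, and the median was -0.73 for the members and -0.07 for all genes. Without P15, 2 of the 6 members were below -0.5, against 19.1% of all tested genes, and the median of the members was -0.40. SOX10 exceeded 0.5 RPKM in only 3 libraries, missed the filter, and is taken from the fit without it. For 0 of the 6 tested members did the groups separate without overlap, as they did for 0.096% of all tested genes. In bulk tissue, fewer cells of a type and less RNA per cell cannot be told apart.

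**Figure D1:**
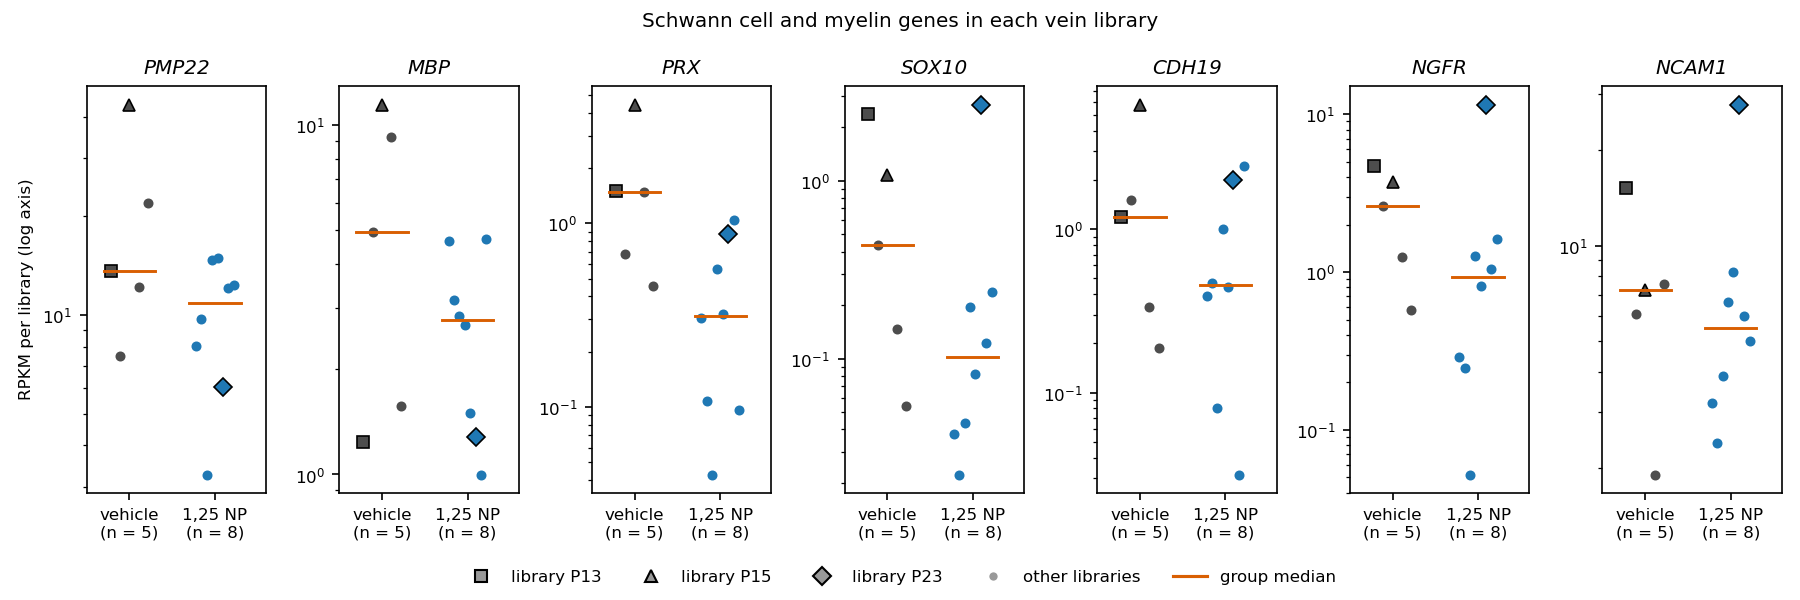
RPKM of the 7 members in each of the 13 libraries on a log axis, with vehicle and 1,25 NP libraries side by side and a line at each group's median. P15 is the highest library for PRX, PMP22, MBP and CDH19, P23 is the highest for SOX10, NGFR and NCAM1, and the groups overlap for all 7 genes.

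PMP22, a small membrane protein of compact myelin whose gene dosage decides between inherited neuropathies in people, was the highest member, with a mean above that of 86.7% of protein-coding genes. It lies at 12:58679776-58707953 in the file's coordinates, for which the sources used here name no pig build. In vehicle it measured 13.6 RPKM in P13, 7.47 in P14, 43.6 in P15, 12.2 in P16 and 21.8 in P17. The 1,25 NP libraries ran from 3.26 in P31 through a median of 10.9 to 14.9 RPKM in P22. All 8 lay below the vehicle mean, yet 6 were no lower than the lowest vehicle library, so the groups overlapped widely. The means were 19.7 ± 14.3 (SD, n = 5) and 10.1 ± 4.14 RPKM (SD, n = 8), and the log2 difference was -0.80 (SE 0.42, 95% interval -1.69 to 0.08, limma adjusted p = 0.795). Without P15 the difference was -0.46.

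MBP, which binds the cytoplasmic faces of the myelin membrane together, lies at 1:147568673-147685288. Its vehicle values were 1.24 RPKM in P13, 4.95 in P14, 11.5 in P15, 9.26 in P16 and 1.57 in P17. The 1,25 NP values had a minimum of 1.00 in P28, a median of 2.76 and a maximum of 4.72 RPKM in P42. The vehicle libraries split widely: P14, P15 and P16 exceeded all 8 treated libraries, whereas P13 and P17 lay at the low end of the treated range. Means were 5.70 ± 4.57 (SD, n = 5) and 2.73 ± 1.44 RPKM (SD, n = 8), and 1,25 NP minus vehicle was -0.68 in log2 (SE 0.48, 95% interval -1.71 to 0.35, limma adjusted p = 0.795). The difference was -0.34 without P15.

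PRX encodes periaxin, a scaffold protein of myelinating Schwann cells that links their outer membrane to the dystroglycan complex, and lies at 6:48675231-48686044. It measured 1.50 RPKM in P13, 0.684 in P14, 4.43 in P15, 1.49 in P16 and 0.453 in P17. In the 1,25 NP group it ran from 0.0429 in P31 through a median of 0.312 to 1.05 RPKM in P28. P13, P15 and P16 were above every treated library and 5 treated libraries were below every vehicle library, with P14 and P17 inside the treated range. The means were 1.71 ± 1.59 (SD, n = 5) and 0.420 ± 0.375 RPKM (SD, n = 8). The log2 difference of -1.11 (SE 0.38, 95% interval -1.91 to -0.31) had an unadjusted limma p of 0.00956, the only member with one under 0.05, where 3.21% of all tested genes had such a p and were lower. Its adjusted p in limma over all genes was 0.795, and without P15 the difference was -0.76. The gene model of HIPK4, a kinase gene, overlaps 78.1% of the PRX span, and its RPKM was 0.337 to 0.774 of that of PRX in each library. As the sources used here do not give the strand setting of the counting, the reads of PRX and HIPK4 cannot be told apart and the level of PRX is uncertain.

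SOX10, the lineage transcription factor, lies at 5:9891525-9959852 and was the lowest member in mean level, above 38.9% of protein-coding genes. It measured 2.37 RPKM in P13, 0.437 in P14, 1.08 in P15, 0.147 in P16 and 0.0542 in P17. The 1,25 NP libraries ran from 0.0223 in P32 through a median of 0.102 to 2.69 RPKM in P23. P23, P13 and P15 stood well above the other 10 libraries, and the highest value of all 13 was in a treated animal. The means of 0.819 ± 0.956 (SD, n = 5) and 0.428 ± 0.915 RPKM (SD, n = 8) each had an SD above the mean. The log2 difference was -0.56 (SE 0.48, 95% interval -1.60 to 0.49, limma adjusted p = 0.854 in the fit without a filter). It was -0.21 without P13 and -0.86 without P23. The reads behind SOX10 ranged from 4 to 435 per library, so its low values carry large counting error. The SOX10 model overlaps those of POLR2F, MICALL1 and C22orf23, and reads of these genes may have been shared.

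CDH19, a cadherin adhesion molecule that marks Schwann cell precursors and their descendants, lies at 1:155669136-155758548. It measured 1.19 RPKM in P13, 1.51 in P14, 5.81 in P15, 0.334 in P16 and 0.186 in P17. In the 1,25 NP group it ran from 0.0315 in P28, which rests on 5 reads, through a median of 0.458 to 2.45 RPKM in P42. P42 and P23 exceeded 4 of the 5 vehicle libraries. The means were 1.81 ± 2.31 (SD, n = 5) and 0.861 ± 0.903 RPKM (SD, n = 8), and the log2 difference was -0.54 (SE 0.53, 95% interval -1.67 to 0.60, limma adjusted p = 0.795). Without P15 it was -0.05.

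NGFR, the low-affinity receptor for nerve growth factor and other neurotrophins, lies at 12:25699427-25720357. The vehicle values were 4.69 RPKM in P13, 2.63 in P14, 3.71 in P15, 1.24 in P16 and 0.574 in P17. The 1,25 NP values ran from 0.0521 in P31 through a median of 0.934 to 11.5 RPKM in P23. One treated library, P23, was higher than all vehicle libraries, and the other 7 lay below the vehicle mean. The means were 2.57 ± 1.70 (SD, n = 5) and 2.11 ± 3.85 RPKM (SD, n = 8), close together although the medians were 2.63 and 0.934 RPKM. The log2 difference was -0.79 (SE 0.62, 95% interval -2.11 to 0.53, limma adjusted p = 0.795), and -1.21 without P23.

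NCAM1, an immunoglobulin-family adhesion molecule, lies at 9:40628750-40960608 and was above 76.1% of protein-coding genes in mean level. It measured 15.2 RPKM in P13, 6.08 in P14, 7.25 in P15, 1.91 in P16 and 7.59 in P17. In the 1,25 NP group it ran from 2.39 in P32 through a median of 5.52 to 27.8 RPKM in P23. The groups overlapped over nearly the whole range. The means were 7.61 ± 4.81 (SD, n = 5) and 7.90 ± 8.25 RPKM (SD, n = 8), and the log2 difference was -0.096 (SE 0.51, 95% interval -1.18 to 0.99, limma adjusted p = 0.948). Its sign turned under median-of-ratios scaling, at 0.0011, and without P13, at 0.20. P16, the lowest library for NCAM1, had the highest summed level of 10 T and natural killer cell markers, 95.2 RPKM against 13.1 to 41.7 in the other libraries, and the part of these cells in the level of NCAM1 was not tested.

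**Figure D2:**
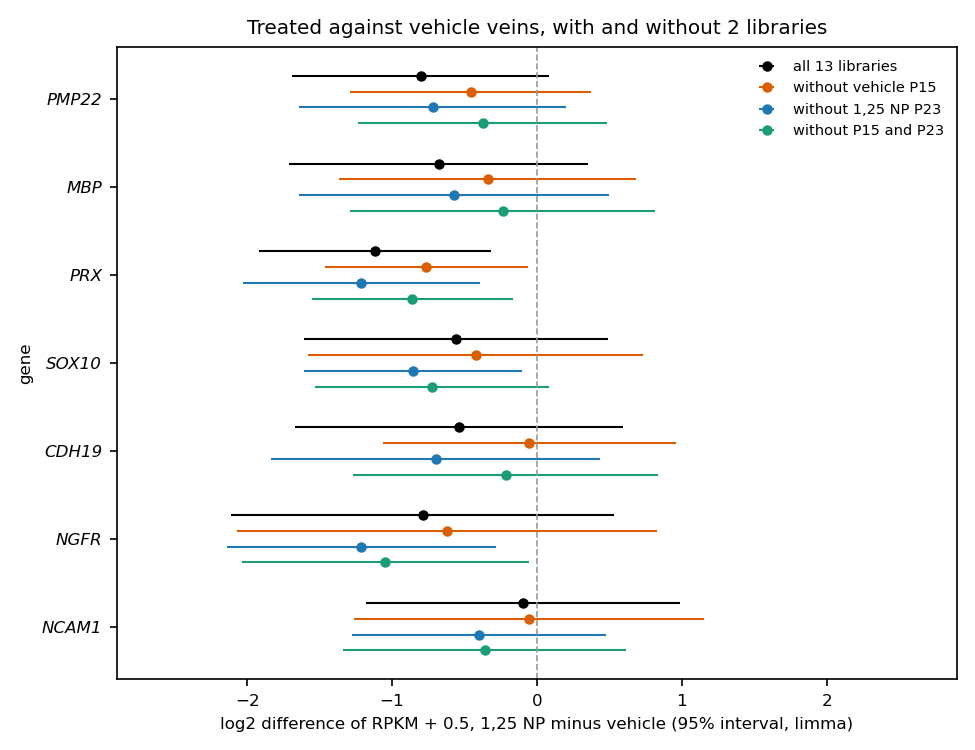
Log2 difference of 1,25 NP minus vehicle for each member with its 95% interval, from limma over all libraries and with P15, P23 or both left out. All 7 points lie below 0 with all libraries, and only the interval of PRX, -1.91 to -0.31, leaves out 0 there.

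The members differed more between animals of one group than most genes did. Within the 1,25 NP group the highest library exceeded the lowest 222-fold for NGFR, 121-fold for SOX10, 77.9-fold for CDH19 and 24.4-fold for PRX. Within the vehicle group these ranges were 8.18-fold for NGFR, 43.7-fold for SOX10, 31.1-fold for CDH19 and 9.78-fold for PRX. NCAM1 spanned 11.6-fold in the 1,25 NP group and 7.97-fold in vehicle, PMP22 4.56-fold and 5.84-fold, and MBP 4.72-fold and 9.24-fold. The within-group SD of the log2 level was 1.24 for NGFR and 1.05 for CDH19, larger than in 95.8% and 91.4% of tested genes, and 0.71 for PRX, larger than in 66.7%. The median SE of the log2 difference was 0.50 for the members and 0.33 for all tested genes.

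P15, a vehicle animal, was highest for 4 of the 7 members and P23, a 1,25 NP animal, for the other 3. P15 exceeded the median of the other libraries 12.7-fold for CDH19, 8.70-fold for PRX, 4.15-fold for MBP and 3.61-fold for PMP22. P23 exceeded it 10.1-fold for NGFR and 4.58-fold for NCAM1, and SOX10 stood at 2.69 RPKM there. P13, also a vehicle animal, ranked second for SOX10, NGFR, NCAM1 and PRX, at 17.6-fold over the median of the other libraries for SOX10. Of all expressed protein-coding genes, 13.1% were highest in P15 and 5.88% in P23.

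P15 also stood apart for myelin genes outside the members. UGT8, which makes the myelin lipid galactosylceramide, was at 16.1 RPKM in P15 and at most 1.79 elsewhere. PMP2, a fatty acid binding protein of peripheral myelin, was at 7.58 RPKM in P15 and at most 0.635 elsewhere. MAG, the adhesion protein facing the axon, had 0 reads in 7 of the 13 libraries, where a count of 0 allows up to 3 reads or 0.0374 RPKM, and stood at 0.920 RPKM in P15. DRP2, which binds periaxin at the outer Schwann cell membrane, was at 6.46 RPKM in P15 and at most 1.14 elsewhere. Of 15 compact and non-compact myelin genes examined, 8 were highest in P15.

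**Figure D3:**
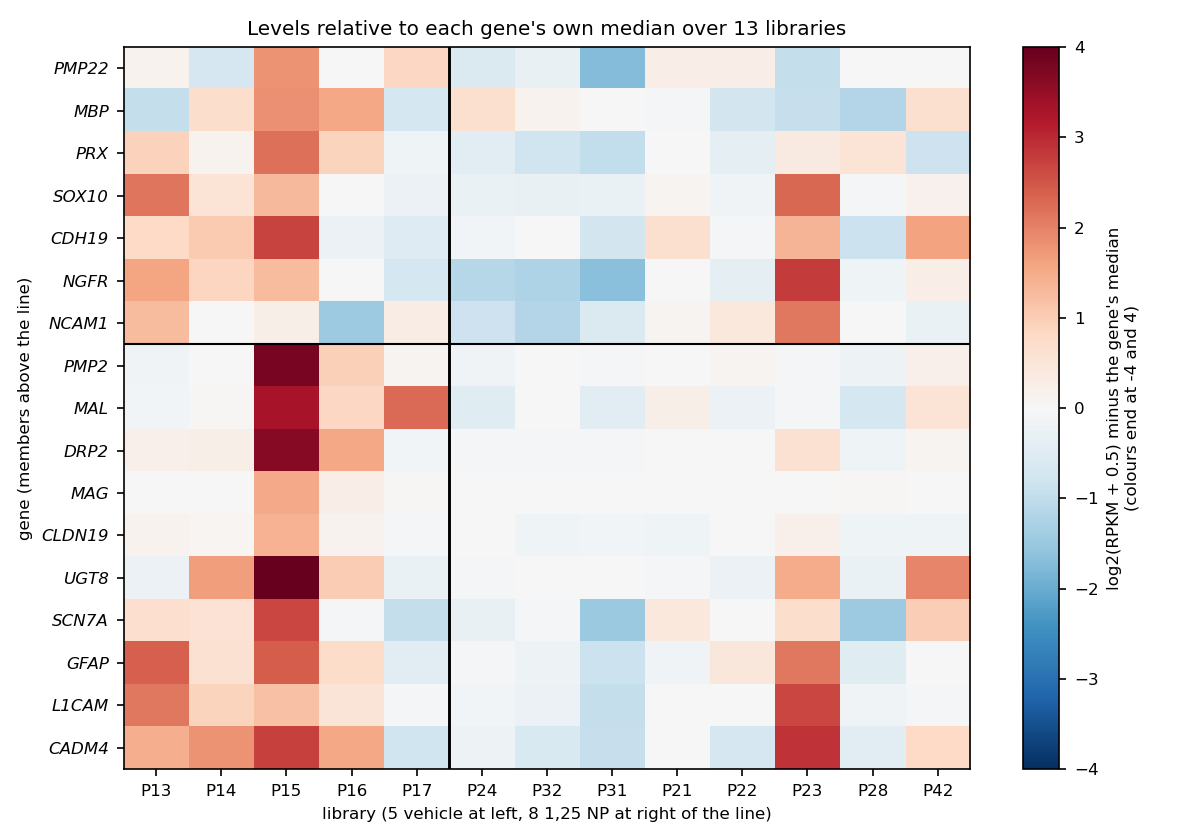
Colour shows log2(RPKM + 0.5) of the 7 members and other Schwann cell genes minus each gene's median, for each of the 13 libraries, with colours ending at -4 and 4. P15 is high for PRX, PMP22, MBP, CDH19 and myelin genes such as PMP2 and UGT8. P13 and P23 are high for SOX10, NGFR, NCAM1, L1CAM and GFAP, and P15 is also high for SOX10, NGFR, L1CAM and GFAP.

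P13, P15 and P23 were the 3 highest libraries for genes of the non-myelinating Schwann cell such as L1CAM and GFAP. L1CAM, an adhesion molecule of small unmyelinated fibres, was at 6.98 RPKM in P23, 4.51 in P13 and 2.14 in P15. GFAP, the intermediate filament of glia, was at 3.76 RPKM in P23 and 4.68 in P13, and at 4.82 in P15. The fibroblast markers, all 9 of them measured, summed to 32103 RPKM in P13, 24899 in P28, 20636 in P23 and 12222 in P15. The part of fibroblasts in the levels of NGFR and NCAM1 was not tested. The skeletal muscle markers summed to 0.0946 to 6.44 RPKM, and 5 of 8 never exceeded 0.5. The 6 melanocyte markers summed to 3.90 to 12.3 RPKM, highest in P15, with 5.95 in P13 and 5.28 in P23. Of these 6, TYR and TYRP1 never exceeded 0.5 RPKM, and TYR was listed at 0 in all libraries. The part of muscle and of melanocytes in the members' levels was not tested.

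Across the 13 libraries, with group means removed, the members varied together in part. Of the 21 pairs, 17 had a positive Pearson r, the median r was 0.38, and 4 pairs passed Benjamini-Hochberg adjustment over the 21 in a two-sided permutation test within groups. SOX10 and NGFR were the closest pair, with r = 0.92 and rho = 0.92, each at a permutation p of 1e-05, the smallest that 100000 permutations can give, and an adjusted p of 0.00021. Leaving out P13 and P23, the libraries farthest from the SOX10 median, gave r = 0.83, and within the 8 treated libraries alone r was 0.95 (exact permutation adjusted p = 0.00469). CDH19 and NGFR had r = 0.69 (permutation p = 0.0061, adjusted p = 0.032) and rho = 0.76 (permutation p = 0.00509, adjusted p = 0.0356), with r = 0.81 without P15 and P42. This pair kept its call in 8 of 18 alternatives, and each of the pairs of NCAM1 with SOX10 and NGFR in 12 of 18.

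For NCAM1, r was 0.82 with SOX10 (permutation p = 0.00428, adjusted p = 0.032), but rho was 0.60 (permutation p = 0.0387, adjusted p = 0.136), and without P13 and P23 r was 0.40, so the relation rests on those libraries. With NGFR it was r = 0.80 (permutation p = 0.00537, adjusted p = 0.032) and rho = 0.58 (permutation p = 0.04825, adjusted p = 0.145), with r = 0.59 without P31 and P23. SOX10 and CDH19 passed by rank only, at rho = 0.80 (permutation p = 0.00467, adjusted p = 0.0356) and r = 0.61 (permutation p = 0.0390, adjusted p = 0.117). MBP ran against NCAM1, at r = -0.63, without passing (permutation p = 0.0182, adjusted p = 0.0764). Leaving out P23 ended the calls of the pairs of NCAM1 with SOX10 and NGFR, and of CDH19 with NGFR, at adjusted p of 0.302, 0.302 and 0.224 in the permutation test.

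**Figure D4:**
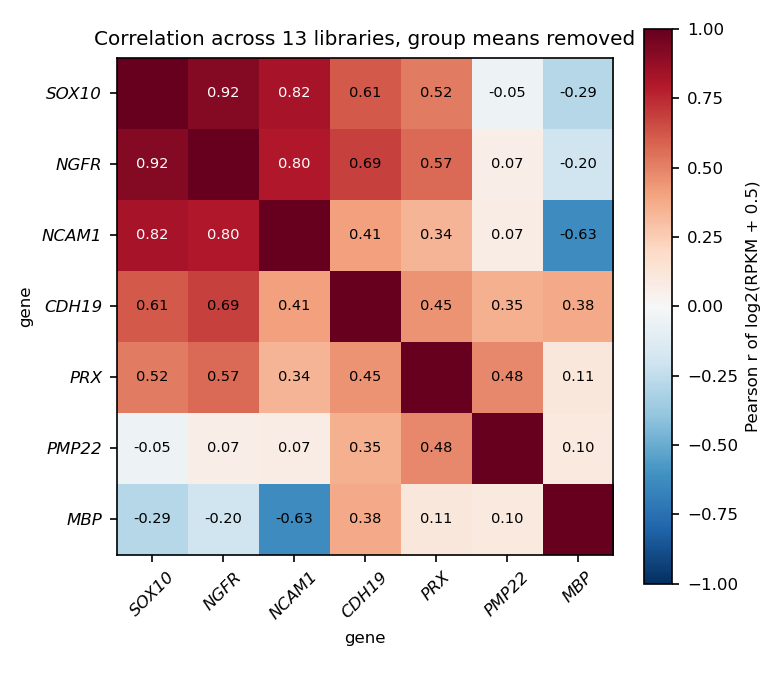
Pearson r between each pair of the 7 members over the 13 libraries after removal of group means. The highest values, 0.80 to 0.92, are among SOX10, NGFR and NCAM1, and the lowest value, -0.63, is between MBP and NCAM1.

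The genes whose pattern over the 13 libraries was most like the mean of SOX10 and CDH19, among 11378 protein-coding genes, were INSC (r = 0.98), XKR4 (0.97), LAMA1 (0.95), ADCY2 (0.92), NDNF (0.92), MATN2 (0.92), GFRA1 (0.91), PRRG3 (0.90), NGFR (0.90) and FIBIN (0.90). These r are a description without a test, and all points share the same libraries. LAMA1 is a laminin chain of basement membranes, MATN2 a matrix protein, GFRA1 the co-receptor for the neurotrophic factor GDNF and ADCY2 an adenylyl cyclase. Among the members, NGFR ranked 9, NCAM1 136, PRX 219, PMP22 1445 and MBP 2822, so PMP22 and MBP did not track SOX10 and CDH19 closely over these animals. In P31, where SOX10 and CDH19 were at 0.0434 and 0.0808 RPKM, MBP was still at 2.85, PMP22 at 3.26 and NCAM1 at 3.90 RPKM.

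Among other Schwann cell and nerve genes, listed by role with earlier results known, 32 of the 61 genes examined passed the filter. Of these, 22 were lower and 10 higher in the 1,25 NP group, 0 were called, and the median log2 difference was -0.31. Over all tested genes 56.2% were lower, at a median of -0.07. An unadjusted limma p under 0.05 was found for 2 of the 32, LGI4 and ATP1B2, both lower, and 3.21% of all tested genes were lower with such a p. CLDN11, a tight junction protein of myelin, was at -0.51 (SE 0.44). All 5 tested genes of non-compact myelin, paranode and node were lower, at a median of -0.86. These included LGI4, a secreted signal that Schwann cells need for myelination, at 7.50 ± 2.70 (SD, n = 5) and 3.80 ± 2.83 RPKM (SD, n = 8). With a library left out in turn, LGI4 stayed between -1.37 and -0.86. GLDN, a protein of the node of Ranvier, gave the median of -0.86 and was at -0.46 without P15.

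Of 6 tested non-myelinating Schwann cell genes 5 were lower, at a median of -0.75. Without P15, GFAP moved from -1.04 to -0.72 and the sodium channel gene SCN7A from -0.73 to -0.21. L1CAM was at most -0.48 with any library left out. ATP1B2, a sodium pump subunit of glia, was at 1.20 ± 0.295 RPKM in vehicle (SD, n = 5) and 0.466 ± 0.235 in 1,25 NP (SD, n = 8), which differ by -0.84 in log2 (SE 0.22, limma adjusted p = 0.795). With a library left out in turn, ATP1B2 stayed between -0.95 and -0.77. Of 10 transcription factors and receptors 7 were lower, at a median of -0.27, among them the laminin receptor subunit ITGB4 at -1.02 (SE 0.53) and the transcription factor EGR2 at -0.45 (SE 0.35). Of 6 myelin lipid genes 4 were higher, at a median of 0.15. The sterol enzymes HMGCS1 and SQLE, which most cells use, were at 0.75 (SE 0.44) and 0.62 (SE 0.39), and UGT8 at -1.04 (SE 0.71). For none of these genes was the adjusted p under 0.05 in limma.

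Genes of axons gave little signal. Of the 13 measured, 7 never exceeded 0.5 RPKM. TH, an enzyme present in noradrenergic neurons, and CHAT, an enzyme of cholinergic neurons, were listed at 0 in all libraries. The 4 that passed were split, with TUBB3 at 0.47 (SE 0.37), UCHL1 at 0.12 (SE 0.52), SNAP25 at -0.017 (SE 0.54) and STMN2 at -0.47 (SE 0.45).

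The sexes were unevenly spread, with 3 vehicle and 3 treated females but 2 vehicle and 5 treated males. Among females the log2 difference was -1.60 for PMP22, -1.57 for PRX, -1.78 for NGFR, -1.30 for SOX10 and CDH19, -0.93 for NCAM1 and -0.10 for MBP. Among males it was 0.13 for PMP22, -0.67 for PRX, -0.084 for NGFR, 0.18 for SOX10, 0.13 for CDH19, 0.88 for NCAM1 and -1.40 for MBP. The median over the 6 tested members was -1.44 in females and 0.025 in males. P15 is a vehicle female and P23 a treated male, so the libraries that stand apart and sex cannot be separated here. The difference between the sexes, males minus females, was 1.81 (SE 1.00) for NCAM1 and 1.74 (SE 0.78) for PMP22, and was not called for any member, with a limma adjusted p of 0.824 for the 6 tested and 0.874 for SOX10.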

How the data were processed

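The authors deposited 1 table of 30477 genes with a value per library, taken as RPKM: multiplied by (length + 1) and a library total, 100% of values came to whole reads within 0.001 reads. The totals were derived from the smallest values. Libraries were made from 0.5 µg of total RNA with TruSeq V2, per the labels' protocols. Those labels also describe a mouse experiment and build, which contradict the pig identifiers and were not used; aligner, counter, build and strand setting are not stated in the sources used here. Columns were assigned to groups by name, and 0 per-sample columns were left aside. Of 14012 unnamed rows, 785 were named from a reference table.

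limma 3.58.1 (R 4.3.3) with a mean-variance trend was fitted to log2(RPKM + 0.5) of genes above 0.5 RPKM in at least 5 libraries, without covariates, with Benjamini-Hochberg adjustment over all genes tested. The design named edgeR only for deposited raw counts, which the table does not hold. The fit was tested on simulated data. Correlations used 100000 permutations within groups in Python 3.11.15, exact within the 8 treated libraries, and figures matplotlib 3.10.9. Members and gene lists were chosen with earlier results of these data known. Named pathway genes are up to 4 per list with the smallest p, and alike genes the 10 with the highest r. Some listed genes are not reported here and were left out of the list counts. Other marker genes and libraries are named where a result turned on them, after their values were seen.

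Alternatives were pseudocounts of 0.1 and 1, no filter, a filter at 1 RPKM, median-of-ratios scaling, voom on recovered reads with and without quality weights, sex as covariate, each sex alone and each library left out. Reads are not independent molecules, so limits from a count of 0 cover counting error only.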

Additional observations from a re-analysis of the deposited data

Results flagged for a closer look

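In each group of 5 or 8 libraries, the RPKM of the members and the named or myelin genes were examined for a library far from all others by Dixon's criterion. Of 74 such groups of values 24 held such a library, each time as the highest of its group. The criterion's rate of about 1 in 20 holds for normally distributed values. Its rate for RPKM over all genes was not measured, so no excess can be read from the 24. P15 accounted for 8 of them and P23 for 9. These genes were partly named because of those libraries, so the count is a description.

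Of the members, PRX at 4.43 RPKM and CDH19 at 5.81 stood far above the other vehicle libraries in P15. In P23, SOX10 at 2.69, NGFR at 11.5 and NCAM1 at 27.8 RPKM stood far above the other treated libraries.

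The other genes that stood apart in P15 were UGT8 at 16.1 RPKM, SCN7A, a sodium channel gene, at 9.34, PMP2 at 7.58, DRP2, a partner of periaxin, at 6.46, CLDN19 at 0.975 and MAG at 0.920. In P23 they were CADM4, an adhesion molecule of the internode, at 8.90 RPKM, L1CAM at 6.98, GFAP at 3.76, NFASC at 0.962, DRP2 at 0.365 and CLDN19 at 0.145. The value of CLDN19 in P23 rests on 9 reads.

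P42, a treated animal, stood apart for EGR2 at 11.8 RPKM, GLDN, a protein of the node of Ranvier, at 10.2, STMN2 at 4.75 and CNTN1 at 3.54. This library also had the highest summed adipocyte markers, 712 RPKM, and their part in these values was not tested. UCHL1 was far above its group in P17, at 12.8 RPKM, and in P28, at 11.0. These were the libraries with the highest summed smooth muscle markers, 5437 and 3975 RPKM, and their part was likewise not tested. ITGB4 stood apart in P13 at 13.7 RPKM.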

How the results depend on the processing

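No paired analysis was possible because the columns carry animal codes and not the replicate numbers of the labels. The exclusion of P15 and P23 together, and the repeats of the counts of pathway genes, were chosen after seeing the data.

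With a library left out in turn, the genes called ranged from 0 to 1, the median of the members from -0.91 to -0.40, PRX from -1.36 to -0.76, PMP22 from -1.07 to -0.46, MBP from -1.03 to -0.34, SOX10 from -0.86 to -0.21, CDH19 from -0.85 to -0.052, NGFR from -1.21 to -0.54 and NCAM1 from -0.48 to 0.20. The 1 call came without P17, and NCAM1 was above 0 without P13, P24 or P32. UCHL1 ranged from -0.28 to 0.62 and SNAP25 from -0.26 to 0.13. The pairs correlated ranged from 1, without P23, P24, P31 or P32, to 6, without P28, with r from 0.80 to 0.94 for SOX10 and NGFR, 0.64 to 0.92 for SOX10 and NCAM1, 0.63 to 0.74 for CDH19 and NGFR, and 0.58 to 0.89 for NGFR and NCAM1.

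In males alone the sign turned for the median of the members (0.025), PMP22 (0.13), SOX10 (0.18), CDH19 (0.13), NCAM1 (0.88), ERBB2 (0.16), DAG1 (0.41) and STMN2 (0.025). In females alone it turned for UCHL1 (-0.79), SNAP25 (1.13) and CLDN11 (0.074). Median-of-ratios scaling turned NCAM1 (0.0011) and SNAP25 (0.018), a pseudocount of 1 turned SNAP25 (0.0088), and the exclusion of P15 and P23 together turned UCHL1 (-0.0066). In the 1,25 NP libraries alone 1 pair was correlated, and 3 lost the call in the exact permutation test: SOX10 with NCAM1 (r = 0.90, adjusted p = 0.0675), NGFR with NCAM1 (0.92, 0.0630) and CDH19 with NGFR (0.70, 0.170). The last also lost it with a pseudocount of 0.1 (0.68, permutation adjusted p = 0.0586) and median-of-ratios scaling (0.66, 0.0521). Without a filter, 40 of the 59 pathway genes with any reads were lower, against 22 of the 32 that passed it. More genes thus entered the count, and 55.5% of all genes were lower without a filter. Scaling by median of ratios moved the share of all genes that were lower from 56.2% to 48.7%, and the members' median was then -0.64.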
